A study of Homo sapiens with 13 samples.

Results

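The HOX genes described here are 27 of 38 listed genes of the human HOXA, HOXB, HOXC and HOXD clusters. A gene was taken if the array platform's annotation gives at least 1 row of the deposited table its symbol alone. Of several rows for a gene, the one with the highest mean was used. The 27 genes, out of 18377 genes tested in all, comprised HOXA2 (1 of 10 listed HOXA genes), all 10 HOXB genes, 7 of 9 HOXC genes and all 9 HOXD genes. HOXC4 and HOXC6 share 1 row that carries both symbols, and they and the remaining 9 HOXA genes were not analysed here. The rule goes by gene name and uses no measured value of a group.

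HOX genes encode homeodomain transcription factors that lie side by side in 4 clusters on separate chromosomes. Within a cluster, genes at the anterior end (low paralog numbers) are switched on early and towards the head of the embryo, and genes at the posterior end (high paralog numbers) later and towards the tail and the tips of the limbs. Adult cells keep part of this pattern as a record of their position in the body, held on by Trithorax proteins and off by Polycomb proteins. Retinoic acid induces anterior HOX genes in embryos, and PBX and MEIS proteins bind DNA together with HOX proteins. Cancers of many tissues express HOX genes outside their normal pattern.

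The study measured total RNA on 13 Affymetrix whole-transcript arrays from the human hepatoblastoma line HepG2 and from HepG2S1, a line derived from it that grows under sorafenib, an inhibitor of RAF and receptor tyrosine kinases. HepG2S1 was obtained by raising the dose in steps of 0.25 µM and is kept under the drug, so every comparison between the lines differs in both selection history and, where given, drug. The 4 groups were HepG2 untreated at 20% O2 (n = 3), HepG2S1 with 6 µM sorafenib at 20% O2 (n = 4), HepG2S1 withdrawn from sorafenib at 20% O2 (n = 3) and HepG2S1 with 6 µM sorafenib at 2% O2 (n = 3), each harvested after 72 h. All grew in the same medium, which holds dexamethasone and insulin, and HepG2S1 is 1 selected line, with no second resistant line to set beside it. The labels do not say whether the samples were separate cultures, and p-values then measure only the spread between these samples.

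Values are log2 intensities after RMA, from 2.68 to 14.5 in the whole table. The array medians were 7.30 to 7.42, and the lower quartile of a typical array was 5.76. A log2 fold change is a difference of group means with its SE from 1 limma fit over the 4 groups, and the threshold for a rise or fall was an adjusted p of 0.05 (Benjamini-Hochberg over all 18377 genes). Correlations between arrays of 1 group were 0.9954 to 0.9983 (15 pairs), between groups of HepG2S1 0.991 to 0.9963 (33 pairs), and between HepG2 and HepG2S1 arrays 0.9134 to 0.9234 (30 pairs). Hepatocyte markers were lower in HepG2S1 than in HepG2: all 14 measured fell under sorafenib, with a summed log2 value of 174.09 to 174.79 in HepG2 and 86.71 to 89.14 over the HepG2S1 arrays, and albumin (ALB) fell from a mean of 12.8 to 5.20 and alpha-fetoprotein (AFP) from 13.4 to 4.79, both then below the lower quartile. FOXA1 (8.81), APOA1 (7.76) and FOXA2 (7.54) fell too but kept means above the array medians in HepG2S1 under sorafenib. The table gives no detection calls, so where a group mean lies below the lower quartile the means are given and the size of the difference is not measured. The levels of different genes are not set against each other, since each row has its own probes.

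HepG2S1 cells under sorafenib differed from HepG2 in most genes of the HOXB and HOXC clusters and in 2 of 9 of the HOXD cluster. Of the 27 genes, 15 rose (55.6%), 2 fell (7.4%) and 10 did not pass, while 30.1% of all genes tested rose and 27.2% fell. In HOXB 8 of 10 rose, in HOXC 6 of 7, and in HOXD 1 rose and 1 fell of 9, and HOXA2 fell. The HOXD count rests on 1 array: without HepG2 replicate 2, HOXD8, HOXD11 and HOXD13 rose as well, which makes 4 rises and 1 fall of 9, and repeated quantile normalization added HOXD8 and HOXD11. The median log2 fold change of the 27 genes was 0.33, against 0.01 for all genes. A rise of 2-fold or more was seen in 6 of the 27 genes (8.45% of all genes), namely HOXC10, HOXC13, HOXB9, HOXB6, HOXB5 and HOXC9, and a fall of that size in HOXA2 (7.31% of all genes). On 13 of the 27 genes all 10 HepG2S1 arrays lay above all 3 HepG2 arrays (48.1%, against 25% of all genes), on 2 they lay below (7.4%, against 22.4%), and on 12 they overlapped.

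**Figure D1:**
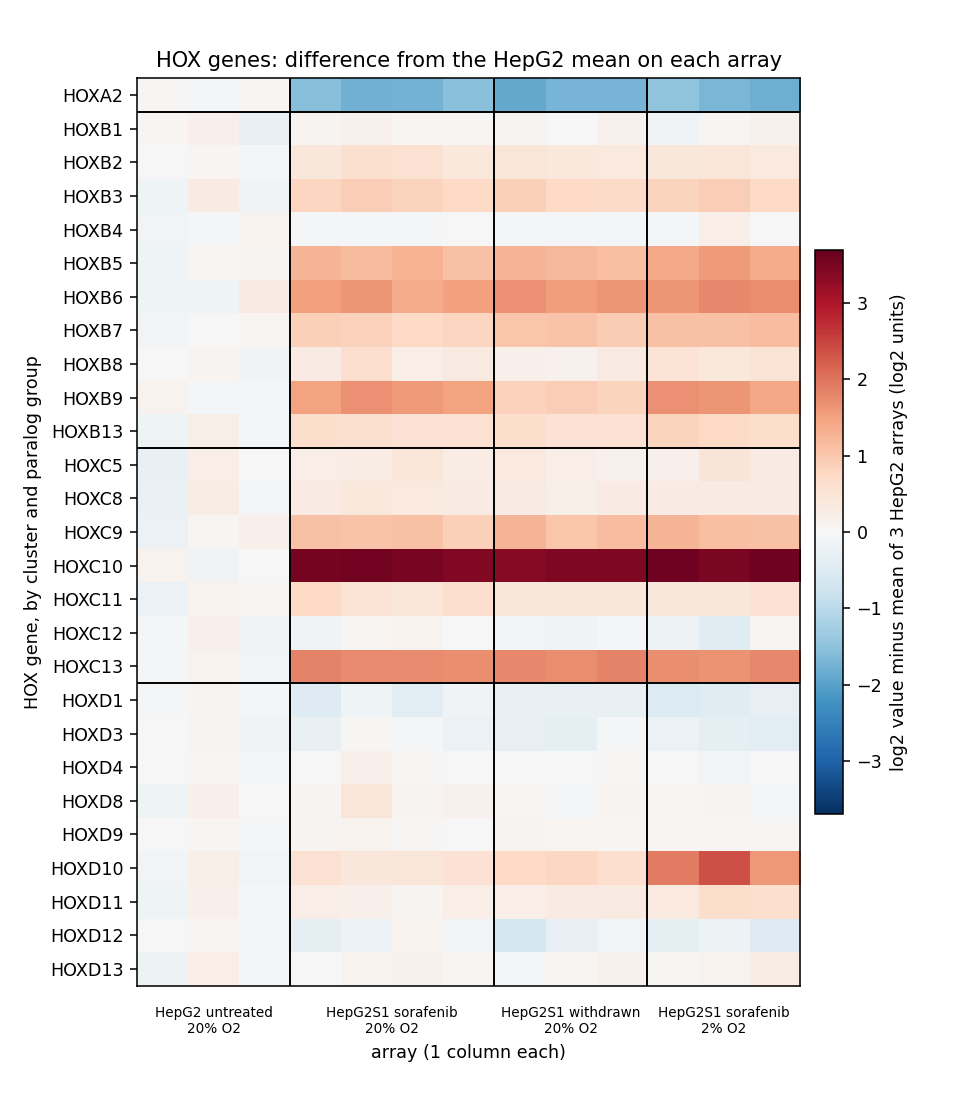
Each row is 1 of the 27 HOX genes in cluster order, each column 1 of the 13 arrays, and the colour is the log2 value minus that gene's mean in the 3 HepG2 arrays. The row of HOXC10 is the darkest on all 10 HepG2S1 arrays, HOXA2 runs the other way, and HOXD10 deepens on the 3 arrays at 2% O2.

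HOXA2, the anterior gene that patterns the hindbrain and the second pharyngeal arch, had log2 values of 7.60, 7.48 and 7.61 in the HepG2 arrays. It had 5.98, 5.79, 5.82 and 6.01 in HepG2S1 under sorafenib, 5.67, 5.85 and 5.83 after withdrawal, and 6.06, 5.88 and 5.74 at 2% O2. No HepG2S1 array reached the lowest HepG2 array, and the 3 HepG2S1 groups overlapped each other. The log2 fold change under sorafenib was -1.66 ± 0.08 (limma, adjusted p = 5e-11), or 3.16-fold lower, and after withdrawal -1.78 ± 0.09 (adjusted p = 5.25e-11). The HepG2S1 means (5.90 under sorafenib, 5.78 after withdrawal and 5.89 at 2% O2) lay close to the lower quartile of an array (5.76), where RMA shrinks folds. HOXA-AS2, a non-coding gene of the same cluster, fell as well, from a mean of 5.74 to 5.12 (adjusted p = 7.78e-06), both below the lower quartile of an array. HOXA2 was the sole HOXA gene with a row of its own, so nothing is said of the cluster as a whole. The 250 bases before the HOXA2 start site (RefSeq, GRCh38.p14, chr7:27102684-27102933, minus strand) are shown because this gene fell where most HOXB and HOXC genes rose. Capitals mark matches, on either strand, to the MEIS motif TGACAG and to ACGTG and GCGTG, which are taken up with HOXD10.
HOXA2: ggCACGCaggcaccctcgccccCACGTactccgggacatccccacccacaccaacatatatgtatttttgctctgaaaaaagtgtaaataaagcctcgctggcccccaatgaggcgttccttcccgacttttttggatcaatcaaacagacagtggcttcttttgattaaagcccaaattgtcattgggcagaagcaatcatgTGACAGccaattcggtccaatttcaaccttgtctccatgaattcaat

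HOXB holds anterior, central and posterior genes, and all but HOXB1 and HOXB4 rose under sorafenib against HepG2. Those 2 had log2 fold changes of 0.09 and -0.05, with 95% intervals inside -0.20 to 0.30. HOXB4, which is known for expanding blood stem cells, had 7.78, 7.82 and 8.0 in HepG2, 7.82, 7.80, 7.78 and 7.86 under sorafenib, 7.82, 7.79 and 7.82 after withdrawal and 7.82, 8.10 and 7.88 at 2% O2, so that its groups overlapped throughout. HOXB3 spans HOXB4 in the RefSeq gene table, and how far their probes are apart is not known.

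HOXB2, a hindbrain gene next in order to HOXB1, had 7.26, 7.36 and 7.23 in HepG2, 7.69, 7.86, 7.84 and 7.68 under sorafenib, 7.73, 7.68 and 7.63 after withdrawal and 7.71, 7.73 and 7.63 at 2% O2. HOXB3, also anterior, had 6.76, 7.21 and 6.78 in HepG2, 7.70, 7.83, 7.74 and 7.65 under sorafenib, 7.79, 7.65 and 7.63 after withdrawal and 7.74, 7.82 and 7.66 at 2% O2. Both were higher on every HepG2S1 array than on any HepG2 array. The rises under sorafenib were 0.49 ± 0.06 for HOXB2 (limma, adjusted p = 3.52e-06) and 0.82 ± 0.09 for HOXB3 (adjusted p = 1.41e-06).

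HOXB5, a central gene active in the embryonic gut and lung, had 6.29, 6.52 and 6.56 in HepG2, 7.72, 7.64, 7.74 and 7.54 under sorafenib, 7.72, 7.67 and 7.56 after withdrawal and 7.87, 8.04 and 7.83 at 2% O2. HOXB6 had 6.90, 6.88 and 7.36 in HepG2, 8.57, 8.67, 8.42 and 8.57 under sorafenib, 8.72, 8.59 and 8.67 after withdrawal and 8.69, 8.81 and 8.76 at 2% O2. HOXB7, which is expressed in many carcinomas, had 6.86, 6.98 and 7.03 in HepG2, 7.83, 7.80, 7.71 and 7.76 under sorafenib, 7.99, 8.01 and 7.90 after withdrawal and 8.05, 8.04 and 8.11 at 2% O2. These 3 neighbours stood apart from HepG2 on all 10 HepG2S1 arrays. Under sorafenib HOXB5 was 2.30-fold higher than in HepG2 (log2 fold change 1.20 ± 0.08, limma adjusted p = 1.55e-09) and HOXB6 2.86-fold (1.51 ± 0.10, adjusted p = 1.7e-09). HOXB7 rose by 0.82 ± 0.06 (adjusted p = 2.85e-09). HOXB8 rose less, by 0.37 (adjusted p = 0.00164), from 6.60 to 6.85 in HepG2 to 6.97 to 7.36 under sorafenib.

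HOXB9, a posterior gene, had 7.39, 7.24 and 7.18 in HepG2, 8.77, 8.95, 8.83 and 8.77 under sorafenib, 8.13, 8.17 and 8.08 after withdrawal and 8.95, 8.92 and 8.71 at 2% O2. The withdrawn arrays lay between those of HepG2 and those of HepG2S1 kept under the drug, with no overlap on either side. The rise against HepG2 was 1.56 ± 0.07 under sorafenib (limma, adjusted p = 2.47e-11), or 2.95-fold, and 0.86 ± 0.08 after withdrawal (adjusted p = 8.07e-08). HOXB13, the most posterior gene of the cluster and a regulator of the prostate, had 6.77, 7.12 and 6.86 in HepG2, 7.55, 7.49, 7.45 and 7.47 under sorafenib, 7.56, 7.45 and 7.49 after withdrawal and 7.74, 7.66 and 7.57 at 2% O2. It rose by 0.58 under sorafenib (adjusted p = 4.8e-06), and every HepG2S1 array was above the HepG2 arrays.

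HOXC10 had the largest fold change of the 27 genes in both comparisons with HepG2. A posterior gene of the hindlimb and lumbar region, it had log2 values of 6.01, 5.75 and 5.89 in HepG2, 9.41, 9.46, 9.40 and 9.32 under sorafenib, 9.26, 9.34 and 9.34 after withdrawal and 9.49, 9.38 and 9.49 at 2% O2. The HepG2 values lay near the lower quartile of an array, and all 10 HepG2S1 arrays lay within 9.26 to 9.49. The difference was 3.52 ± 0.06 under sorafenib (limma, adjusted p = 3.28e-16), or 11.4-fold, and 3.42 ± 0.07 after withdrawal (adjusted p = 1.15e-15), or 10.7-fold. HOXC13, the last gene of the cluster, which controls hair and nail keratins, had 7.33, 7.52 and 7.29 in HepG2, 9.20, 9.13, 9.14 and 9.10 under sorafenib, 9.16, 9.09 and 9.22 after withdrawal and 9.09, 9.06 and 9.15 at 2% O2. Its rise under sorafenib was 1.76 ± 0.06 (adjusted p = 7.61e-13), or 3.40-fold.

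HOXC9, the neighbour of HOXC10 on the anterior side, had 6.16, 6.41 and 6.55 in HepG2, 7.44, 7.41, 7.45 and 7.24 under sorafenib, 7.63, 7.40 and 7.53 after withdrawal and 7.61, 7.48 and 7.45 at 2% O2. Its lowest HepG2S1 array lay above its highest HepG2 array, and the rise under sorafenib was 1.01 ± 0.09 (limma, adjusted p = 5.74e-08), or 2.02-fold. HOXC11, between HOXC10 and HOXC12, rose by 0.57 (adjusted p = 2.02e-05). HOXC5 and HOXC8 rose by 0.31 (adjusted p = 0.0164) and 0.33 (adjusted p = 0.00475), and HOXC5 did not pass without HepG2 replicate 1 or without sorafenib replicate 3. HOXC12 had a log2 fold change of 0.01, with a 95% interval of -0.22 to 0.24, although its neighbours HOXC11 and HOXC13 on either side both passed. HOXC5 shares its start with HOXC4 and HOXC6 in the RefSeq gene table, so its row may also read their transcripts.

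In HOXD, 7 of 9 genes did not pass under sorafenib against HepG2, with log2 fold changes of -0.13 to 0.20 and 95% intervals inside -0.39 to 0.40. HOXD4 had 7.86, 7.87 and 7.77 in HepG2, 7.84, 8.03, 7.87 and 7.86 under sorafenib, 7.86, 7.86 and 7.88 after withdrawal and 7.86, 7.72 and 7.86 at 2% O2. HOXD9 had 7.83, 7.93 and 7.82 in HepG2, 7.95, 7.99, 7.92 and 7.86 under sorafenib, 7.97, 7.94 and 7.90 after withdrawal and 7.91, 7.92 and 7.91 at 2% O2. HOXD13, the gene of the digits, had 7.18, 7.61 and 7.31 in HepG2, 7.34, 7.50, 7.52 and 7.44 under sorafenib, 7.29, 7.44 and 7.53 after withdrawal and 7.42, 7.49 and 7.63 at 2% O2. The HepG2 and HepG2S1 arrays of these 3 genes overlapped. HOXD1, an anterior gene, had 8.39, 8.57 and 8.41 in HepG2, 7.98, 8.29, 8.06 and 8.33 under sorafenib, 8.19 on each array after withdrawal and 7.95, 8.01 and 8.14 at 2% O2. It was lower on all 10 HepG2S1 arrays and fell by 0.29 under sorafenib (SE 0.08, limma adjusted p = 0.00669). The withdrawn values of HOXD1 were identical (8.1861). Identical values also recurred across groups for HOXD4 (7.8613) and HOXB4 (7.8238). The same was seen in genes that passed in a comparison, among them HOXD11 (7.0924), HOXC8 (7.2186), HOXB2 (7.6813) and HOXB3 (7.6494). How such ties bear on the spread of these rows was not tested. HOXD10, a posterior gene of the hindlimb, rose by 0.50 ± 0.13 under sorafenib (adjusted p = 0.00401).

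**Figure D2:**
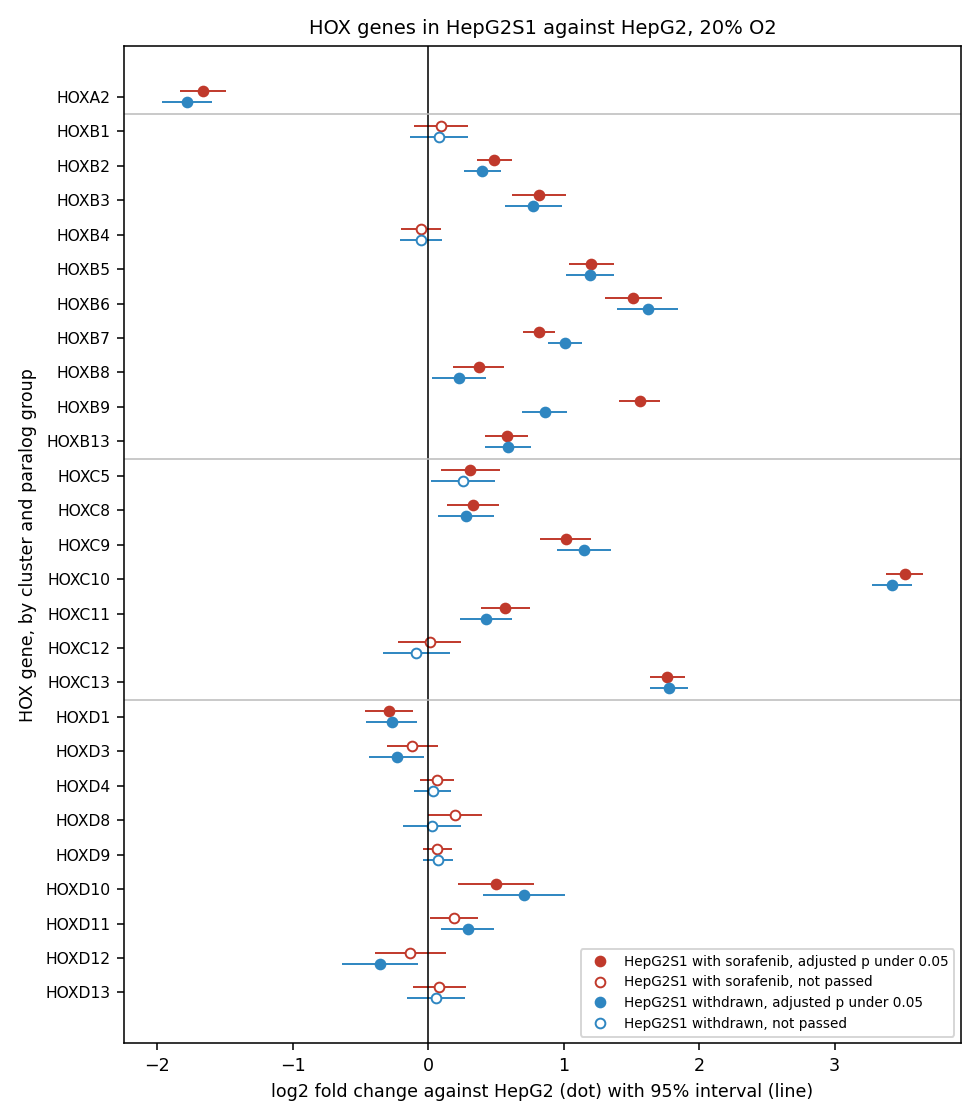
Log2 fold change against HepG2 of each HOX gene, with HepG2S1 under sorafenib and HepG2S1 after withdrawal drawn separately; bars are 95% intervals from the limma fit, and both comparisons use the same 3 HepG2 arrays. HOXC10 stands furthest to the right, HOXA2 furthest to the left, and most HOXD genes sit near 0.

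By position along the clusters, 2 of 6 anterior genes (paralogs 1 to 3) rose and 2 fell under sorafenib, 6 of 9 central genes (4 to 8) rose, and 7 of 12 posterior genes (9 to 13) rose, where 30.1% of all genes rose and 27.2% fell. The anterior counts are near those shares. Among the posterior genes, 2 of 2 in HOXB, 4 of 5 in HOXC and 1 of 5 in HOXD rose. No test of these counts against each other was made.

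HepG2S1 withdrawn from the drug was set against the same 3 HepG2 arrays, so the 2 comparisons share their reference. After withdrawal 15 of the 27 genes rose (29.6% of all genes), 4 fell (27% of all genes) and 8 did not pass. The rises included HOXC13 (1.78), HOXB6 (1.62), HOXB5 (1.19), HOXC9 (1.15), HOXB7 (1.01) and HOXD10 (0.71, limma adjusted p = 0.000442). HOXD11 rose by 0.29 (adjusted p = 0.0117) and HOXB8 by 0.23 (adjusted p = 0.0479), while HOXC5 did not pass (adjusted p = 0.0583). HOXB8 lost its call without HepG2 replicate 1 or 3 or any 1 of the withdrawn arrays, and with trend and robust moderation, array weights or scaling to the 75th percentile. HOXC8, at 0.28 (adjusted p = 0.0219), lost its call without HepG2 replicate 1 or 3 or withdrawn replicate 1 or 3, in a fit of the 2 groups alone and under that scaling. HOXD11 lost it without HepG2 replicate 1 (adjusted p = 0.0638) and under that scaling (adjusted p = 0.0684). The falls were HOXA2, HOXD1 (-0.27, adjusted p = 0.0163), HOXD12 (adjusted p = 0.0302) and HOXD3 (-0.23, adjusted p = 0.0459). HOXD12 had means of 5.81 and 5.45, at and below the lower quartile, and the HOXD3 arrays of the 2 groups overlapped. The count of falls rests on single arrays: it was 1 without HepG2 replicate 2, and 2 without HepG2 replicate 1 or withdrawn replicate 1.

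Within HepG2S1, 2 of the 27 genes passed on withdrawal of sorafenib in the fit over the 4 groups. HOXB9 fell by 0.70 on the log2 scale (SE 0.07, 95% interval -0.85 to -0.55, limma adjusted p = 1.61e-05), or 1.63-fold, and HOXB7 rose by 0.19 ± 0.06 (adjusted p = 0.0239). That is 1 gene in each direction, where 10.1% of all genes rose and 7.9% fell. The other 25 had log2 fold changes of -0.22 to 0.21, with 95% intervals inside -0.49 to 0.49. HOXC10, HOXC13, HOXB6, HOXB5 and HOXC9 were among them, as was HOXD10 (0.21, limma adjusted p = 0.348). The HOXD10 arrays after withdrawal (7.29 to 7.42) nevertheless lay above those under sorafenib (7.10 to 7.23). HOXD10 passed when limma was fitted to the 2 groups alone (adjusted p = 0.0272). The fit over the 4 groups also takes in the spread of the 2% O2 arrays, which was wide for HOXD10 (SD 0.39). The rise of HOXB7 did not pass without sorafenib replicate 3 or 4, or without withdrawn replicate 1 or 2 (adjusted p of 0.0572 to 0.116), nor when each array was scaled to its 75th percentile (adjusted p = 0.0501).

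Low oxygen raised HOXD10 in HepG2S1 under sorafenib. Its log2 values were 6.57, 6.88 and 6.55 in HepG2, 7.23, 7.10, 7.12 and 7.22 under sorafenib at 20% O2, 7.40, 7.42 and 7.29 after withdrawal and 8.59, 9.04 and 8.28 at 2% O2. The 3 arrays at 2% O2 were above all 10 others and spread more among themselves than those of any other group (SD 0.39, against 0.07 to 0.18). The rise from 20% to 2% O2 was 1.47 ± 0.13 (95% interval 1.19 to 1.75, limma adjusted p = 2.81e-06), or 2.77-fold, and it was 1.27 to 1.65 when single arrays were left out. Of all genes 0.43% rose 2-fold or more in this comparison, which uses the same 4 arrays at 20% O2 as the comparison of withdrawal.

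In all, 4 of the 27 genes rose at 2% O2 and 0 fell by limma, while 8.99% of all genes rose and 6.17% fell. At an unadjusted p under 0.05, 5 were higher (HOXB13 was added) and 1 was lower (HOXD3, with overlapping arrays). HOXD11, the gene next to HOXD10 on the posterior side, had 6.71, 7.05 and 6.81 in HepG2, 7.09, 7.06, 6.96 and 7.09 under sorafenib, 7.09, 7.16 and 7.20 after withdrawal and 7.21, 7.51 and 7.49 at 2% O2. Its arrays at 2% O2 lay above every other array, and the rise was 0.36 ± 0.08 (limma, adjusted p = 0.0112), but it did not pass without replicate 2 of the 2% O2 group (adjusted p = 0.0662). HOXB7 rose by 0.29 ± 0.06 (adjusted p = 0.00241). HOXB5 rose by 0.25 ± 0.08 (adjusted p = 0.0408), a call that was lost without sorafenib replicate 2, 3 or 4, without 2% O2 replicate 1 or 2 (adjusted p of 0.0503 to 0.193), and under scaling to the 75th percentile (adjusted p = 0.0747). The other 23 genes had log2 fold changes of -0.21 to 0.20, with 95% intervals inside -0.47 to 0.41. HOXD9, on the anterior side of HOXD10, was among them, as were HOXD12 and HOXD13 beyond HOXD11.

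**Figure D3:**
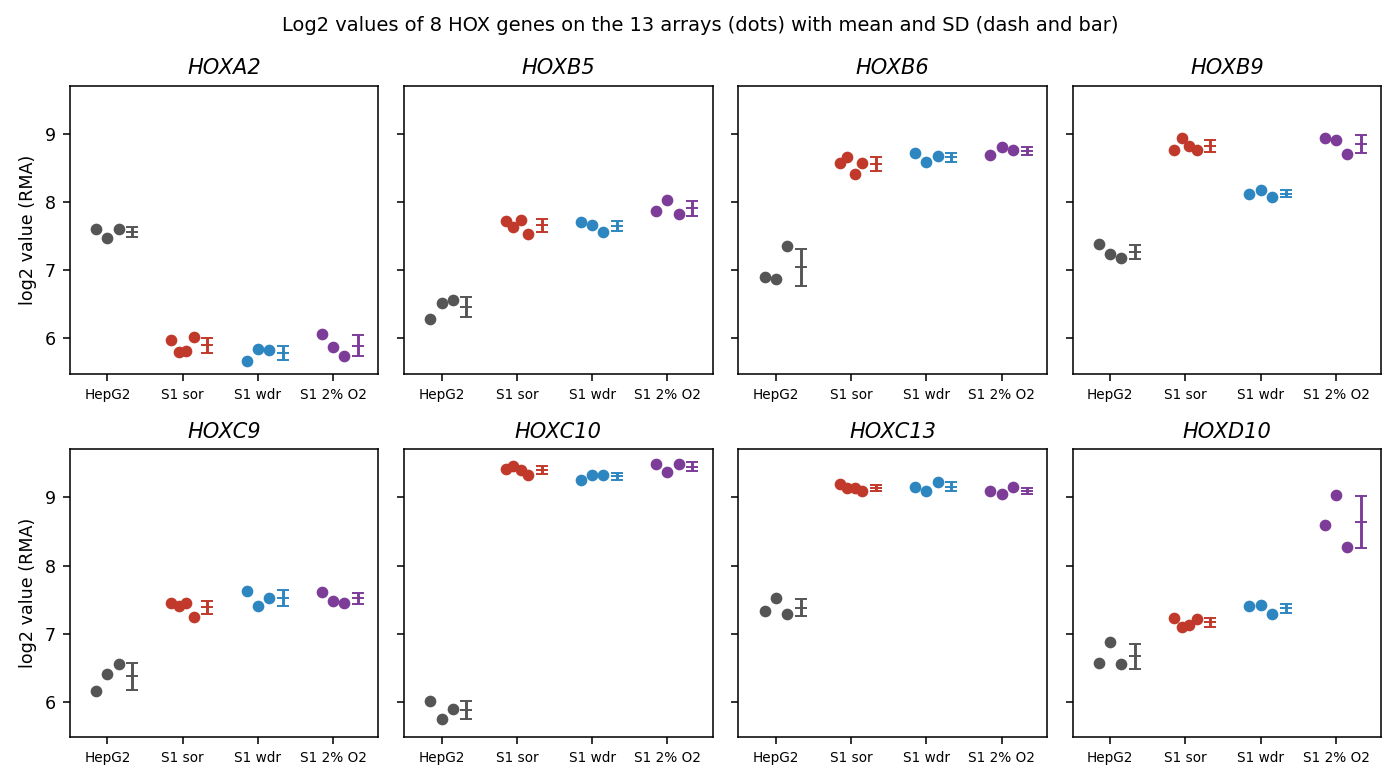
Log2 value of selected HOX genes on each of the 13 arrays by group, each point 1 array, with the mean and SD of the group; S1 is HepG2S1, sor under sorafenib at 20% O2, wdr withdrawn, and 2% O2 under sorafenib at that oxygen level. HOXC10 separates HepG2 from all HepG2S1 groups, HOXB9 is lower after withdrawal (8.08 to 8.17) than under sorafenib, and HOXD10 is highest at 2% O2 (8.28 to 9.04).

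**Figure D4:**
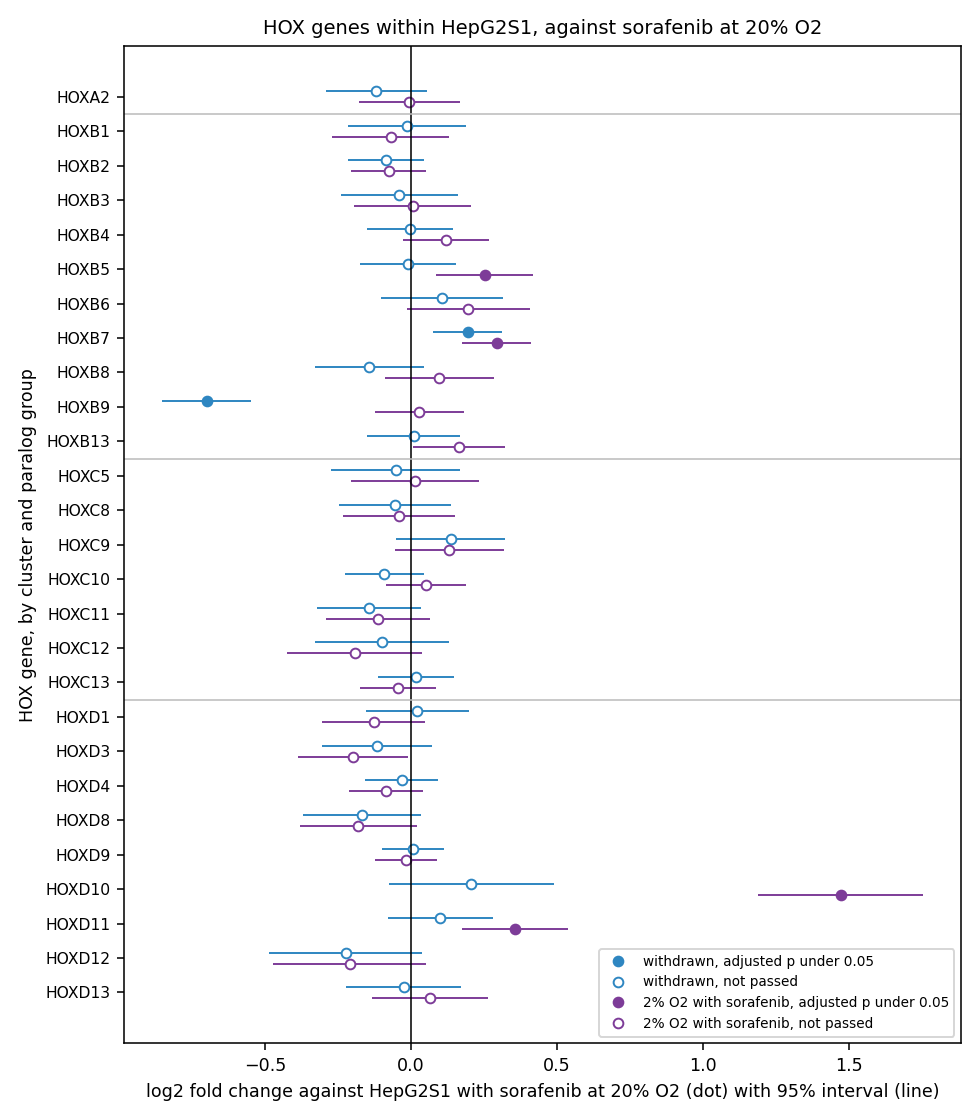
Log2 fold change within HepG2S1 of each HOX gene, for withdrawal against sorafenib and for 2% against 20% O2, with 95% intervals from the limma fit; both comparisons share the 4 sorafenib arrays at 20% O2. HOXB9 is the gene furthest to the left under withdrawal (-0.70) and HOXD10 the gene furthest to the right at 2% O2 (1.47).

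The promoters of HOXD10 (GRCh38.p14, chr2:176116528-176116777, plus strand) and HOXD11 (chr2:176107030-176107279, plus strand) are shown as those of the neighbouring pair that rose at 2% O2, each as the 250 bases before the RefSeq start site. Capitals mark ACGTG, the letters at the core of hypoxia response elements, and GCGTG, a variant of it, on either strand.
HOXD10: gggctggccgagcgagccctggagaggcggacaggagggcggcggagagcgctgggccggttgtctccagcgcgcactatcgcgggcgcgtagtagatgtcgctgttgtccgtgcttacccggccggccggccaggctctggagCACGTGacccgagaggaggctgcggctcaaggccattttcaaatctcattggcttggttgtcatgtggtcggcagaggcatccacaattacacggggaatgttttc
HOXD11: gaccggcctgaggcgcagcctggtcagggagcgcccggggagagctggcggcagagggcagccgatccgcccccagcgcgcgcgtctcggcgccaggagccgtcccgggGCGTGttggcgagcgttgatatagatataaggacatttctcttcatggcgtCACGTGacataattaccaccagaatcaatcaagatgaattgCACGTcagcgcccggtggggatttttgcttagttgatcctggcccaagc
HOXD10 held 2 positions of ACGTG, both within 1 palindrome CACGTG that reads the same on either strand, and HOXD11 held 3, together with 1 of GCGTG. The first of these motifs was found in 8 of the 11 HOX genes that the promoter table lists, including HOXD13, HOXD4, HOXD3 and HOXD1, which did not pass at 2% O2, and in 18.5% of all 35116 promoters. The second was found in 4 of 11 and in 32.2% of all. The 11 genes are HOXA2, HOXB1, HOXC5 and every HOXD gene described here but HOXD9. None of the genes that rose 2-fold or more against HepG2 is among them. These 2 motifs were searched after the oxygen values had been seen, and both hold a CG. The 11 HOX promoters, most of them of HOXD, had a median of 21 CG (4 to 31), and all promoters a median of 11. The motif AGGTCA, a retinoid receptor site, was in 0 of the 11 (12.1% of all), TTTATG, read by CDX proteins, in HOXD8 (9.64%), TGACAG in HOXA2 (13%) and the TATA box TATAAA in HOXD13 (10.7%). A match describes these letters in this window and is not a measured binding site.

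Genes beside the clusters were measured as well. Beside the counts of this and the following gene lists stand, over all genes, 30.1% higher and 27.2% lower under sorafenib against HepG2, 10.1% and 7.9% on withdrawal, and 8.99% and 6.17% at 2% O2. Of 22 measured, 11 rose and 7 fell in HepG2S1 under sorafenib against HepG2. Near HOXA, where HOXA2 fell, JAZF1 rose from a mean of 5.57, below the lower quartile, to 9.20 (limma, adjusted p = 9e-16), and SKAP2 fell by 1.84 (adjusted p = 1.5e-11). Near HOXC, CBX5, a heterochromatin protein, rose by 1.38 (adjusted p = 2.08e-11) and COPZ1, a vesicle coat subunit, by 1.05 (adjusted p = 9.69e-11). On the sides of HOXD, LNPK was 0.48 ± 0.08 higher (adjusted p = 5.83e-05) and MTX2 fell by 0.38 (adjusted p = 0.000384). At 2% O2, 4 of the 22 passed, each a rise. LNPK (0.69 ± 0.08, limma adjusted p = 3.34e-05) and MTX2 (0.39 ± 0.08, adjusted p = 0.00303), the flanks of HOXD, were 2 of these. The others were TTLL6, beside HOXB, with a change between those of LNPK and MTX2 in size, and SMUG1, beside HOXC. The remaining listed genes on the sides of HOXD did not pass. EVX2, which lies between LNPK and HOXD13, did not pass either (adjusted p = 0.337). On withdrawal 2 rose and 2 fell, among them NFE2L1 (-0.34), CBX1 (0.21) and SNX11, whose change lay between these in size. All of these lie beside HOXB.

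Non-coding genes within the clusters were measured for 6 of 24 listed. MIR196A2, which lies between HOXC10 and HOXC9 and makes a microRNA that targets HOX messages, rose by 0.33 ± 0.08 under sorafenib against HepG2 (limma, adjusted p = 0.0017), from 6.08 to 6.41. MIR10A, which lies between HOXB4 and HOXB5, rose at 2% O2 (adjusted p = 0.0482) from a mean of 3.67 to 3.94, both far below the lower quartile of an array. These rows read the gene's transcript and not the processed microRNA. MIR196A2 did not pass after withdrawal against HepG2. The mature sequences are given because of the HOX genes beside them, with the seed, bases 2 to 8, in capitals. Of those neighbours HOXC9, HOXC10 and HOXB5 rose under sorafenib against HepG2, and HOXB4 did not pass. In GRCh38.p14, miR-196a-5p lies at chr12:53991762-53991783 on the plus strand and miR-10a-5p at chr17:48579904-48579926 on the minus strand.
hsa-miR-196a-5p: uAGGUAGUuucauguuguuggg
hsa-miR-10a-5p: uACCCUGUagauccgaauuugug
The 2 seeds differ. RefSeq gives MIR196A1, in the HOXB cluster, the same 5p sequence.

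HOX partner proteins were measured for 8 of 10 listed cofactors, of which 2 rose and 1 fell under sorafenib against HepG2. MEIS1, a partner of posterior and central HOX proteins, rose by 0.98 ± 0.08 (limma, adjusted p = 1.48e-08), from 6.74 to 7.72, and PBX4 by 0.44 ± 0.05 (adjusted p = 1.04e-06). MEIS2 fell by 0.44 (adjusted p = 2.3e-05). Against sorafenib at 20% O2, MEIS2 was 0.57 ± 0.07 higher after withdrawal (adjusted p = 4.33e-05) and 0.51 ± 0.07 higher at 2% O2 (adjusted p = 9.79e-05), 2 values that share the sorafenib arrays. In all, 2 cofactors rose and 1 fell on withdrawal, and 2 rose at 2% O2.

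Polycomb genes, which keep HOX genes silent, were measured for 28 of 33 listed, and 12 rose and 12 fell under sorafenib against HepG2. EZH2, the methyltransferase of Polycomb complex PRC2, rose by 1.35 (limma, adjusted p = 6.3e-12). PCGF3 fell by 1.39 (adjusted p = 5.79e-12) and PCGF2 by 1.21 (adjusted p = 6.58e-11), both ring finger subunits of PRC1, and EPOP, a PRC2 subunit, fell by 1.13 (adjusted p = 6.34e-09). Within HepG2S1, 3 rose and 5 fell on withdrawal, and 3 rose and 1 fell at 2% O2, PCGF5 (0.66, adjusted p = 0.0002) being the largest. Trithorax and KMT2 genes, which keep HOX genes on, were measured for 21 of 22, and 9 rose and 8 fell. KMT2A, the methyltransferase that maintains HOX expression, rose by 0.84 (adjusted p = 1.61e-09) and PSIP1, its chromatin tether, by 1.33 (adjusted p = 2.69e-09). DOT1L, a histone H3 methyltransferase recruited with it in leukaemia, fell by 0.91 (adjusted p = 1.3e-08) and the demethylase KDM6B by 0.87 (adjusted p = 1.44e-08). MLLT3, a reader that brings DOT1L to genes, rose by 0.50 on withdrawal (adjusted p = 0.00275) and by 0.67 at 2% O2 (adjusted p = 0.000378).

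Retinoic acid genes were measured for 18 of 24, and 3 rose and 8 fell under sorafenib against HepG2. ALDH1A1, which makes retinoic acid, fell from a mean of 10.8 to 4.91, below the lower quartile (limma, adjusted p = 9.71e-18), and the receptor RARG rose by 2.23 (adjusted p = 5.35e-14). At 2% O2, 2 rose and 3 fell, the rises being CRABP2, a carrier of retinoic acid (1.12 ± 0.08, adjusted p = 1.61e-07), and DHRS3, which lowers its supply (0.59 ± 0.06, adjusted p = 9.4e-06). CDX, other ParaHox and EVX genes, relatives that act upstream of or beside HOX genes, had 1 call among 8 under sorafenib, a fall of EVX1. No CDX or other ParaHox gene passed there. Of 52 other homeobox and T-box genes with a positional role, 12 rose and 11 fell, among them ALX1, a gene of the face, from 5.33, below the lower quartile, to 7.69 (adjusted p = 1.68e-13); at 2% O2, 7 passed, each a fall. All these lists were drawn up with earlier results of these data known.

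Some markers of other cell types also differed between the lines, where 30.1% of all genes rose and 27.2% fell under sorafenib against HepG2. Of 11 fibroblast markers 3 rose, each from a mean below the lower quartile (DCN from 5.16 to 10.6, LUM from 5.20 to 10.2 and FAP from 5.11 to 8.86), with summed values of 68.03 to 69.44 in HepG2, 82.46 to 82.77 under sorafenib, 83.79 to 84.03 after withdrawal and 81.81 to 82.3 at 2% O2. The other 8 fibroblast markers did not pass, and the median log2 fold change of the 11 was 0.04. The fibroblast rises and the intestinal falls are near the shares over all genes, while no fibroblast marker fell and no intestinal marker rose. Of 8 squamous markers 3 rose, 1 fell and 4 did not pass, and their median log2 fold change was 0.09. The largest change was that of SERPINB5, from 5.03, below the lower quartile, to 11.8. The squamous sums, which include SERPINB5, were 51.36 to 52.82 in HepG2 and 60.49 to 62.83 in HepG2S1. Of 7 intestinal markers 2 fell, of 9 endothelial and blood markers 1 rose and 4 fell, and of 7 neural markers 1 fell. RMA gives no value of 0, so no marker is listed as absent. The part of these and the hepatocyte markers in the HOX differences between the lines was not tested, and more cells of a kind and more RNA per cell cannot be told apart in bulk RNA.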

How the data were processed

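RNA from 13 samples was measured on Affymetrix whole-transcript arrays. The values are log2 intensities in 1 table that the authors deposited, and the submitters' processing notes name RMA as the tool; its version is not given in the sources used here. RMA corrects background, normalizes arrays by quantiles and sums up probes, which shrinks folds near the lower end. The log2 scale was read from the deposited values.

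Of 28926 rows, 19310 had 1 gene symbol in the platform annotation, 1752 several and 7864 none. Symbols were updated through the RefSeq gene table of GRCh38.p14 for 19279 rows. For 685 genes with several rows the one with the highest mean was kept, which left 18377 genes. Groups were compared with limma 3.58.1 in R 4.3.3 (lmFit, eBayes, 1 fit over 4 groups, no covariates), after a check on simulated data. No scan date or batch was given.

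The HOX genes, gene lists and rules were chosen with earlier results of these data known. Values on each array are given for genes with a group mean above 7.35, the median of the array medians, for calls of 2-fold or more against HepG2, and for calls within HepG2S1; list genes are named by the largest called changes. Replicates are numbered in accession order. Each result was recomputed with trend and robust eBayes, in a fit of 2 groups, without genes under the 33rd percentile of the mean, after scaling arrays to the 75th percentile or a further quantile normalization, with array weights, with rows of a gene averaged, and without each array in turn.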

Additional observations from a re-analysis of the deposited data

Results flagged for a closer look

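In the group of 4 arrays under sorafenib at 20% O2, 4 of the 27 HOX genes tested had 1 array far from the others. It was not the same array for each gene. For any 1 gene, chance does this in about 1 of 20 groups, so over 27 genes some such cases can arise by chance. HOXC5 had 1 array at 6.60 (replicate 3), with the others at 6.39 to 6.42. HOXC9 had 1 array at 7.24 (replicate 4), with the others at 7.41 to 7.45. HOXD4 had 1 array at 8.03 and HOXD8 1 array at 6.95, both replicate 2, with the others at 7.84 to 7.87 and 6.58 to 6.64.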

How the results depend on the processing

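Of 165 recomputed counts of called genes, 147 stayed within 1.5 times their value. Among log2 fold changes of the HOX genes with values on each array, 15 lost their call, 5 gained one, 917 kept direction and call, and 49 changed sign; those 49 did not pass before or after, and lie close to 0. Leaving out genes under the 33rd percentile of mean level took HOXA2 and 7 others out of the test, so that 19 remained and HOX falls against HepG2 numbered 1 under sorafenib and 1 after withdrawal. Repeated quantile normalization gave 2 falls after withdrawal, and leaving out single arrays 1 to 4. For HOX rises on withdrawal, fitting the 2 groups alone gave 2 (HOXD10 was gained), scaling to the 75th percentile 0, and leaving out single arrays 0 to 1. At 2% O2, leaving out single arrays gave 2 to 4 HOX rises (2 without replicate 2 of the 2% O2 group) and 0 to 1 falls (HOXC12, without its replicate 3). Array weights called 5231 of all genes on withdrawal (3303 in the reported fit) and 4568 at 2% O2 (2786 in the reported fit, 1598 to 2963 with single arrays left out; 1722 without replicate 1 and 1598 without replicate 2 of the 2% O2 group). Except where a fit had fewer genes or arrays, the cause was not tested. No paired analysis was possible because the labels give no replicate number that groups share.

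Sign changes under scaling to the 75th percentile were, against HepG2 after withdrawal, HOXD4 (-0.042), HOXD9 (-0.0013) and HOXD13 (-0.018); on withdrawal, HOXB13 (-0.021), HOXC13 (-0.014), HOXD1 (-0.0083) and HOXD9 (-0.023); and at 2% O2, HOXB3 (-0.054), HOXB9 (-0.031) and HOXC10 (-0.0079). Under repeated quantile normalization they were, on withdrawal, HOXB4 (0.018), HOXB5 (0.021), HOXC13 (-0.013) and HOXD13 (0.010), and at 2% O2, HOXA2 (0.069), HOXB9 (-0.030) and HOXC10 (-0.011). With array weights HOXB5 on withdrawal was 0.0005 and HOXA2 at 2% O2 0.031. With single arrays left out, the range under sorafenib against HepG2 was -0.0097 to 0.21 for HOXD13 and -0.095 to 0.018 for HOXB4. After withdrawal against HepG2 it was -0.036 to 0.18 for HOXD13, -0.099 to 0.014 for HOXB4 and -0.0003 to 0.052 for HOXD4. On withdrawal it was -0.052 to 0.032 for HOXB5, -0.041 to 0.077 for HOXD1, -0.053 to 0.010 for HOXD4, -0.023 to 0.034 for HOXB13, -0.016 to 0.012 for HOXB4, -0.016 to 0.048 for HOXC13, -0.016 to 0.025 for HOXD9 and -0.081 to 0.038 for HOXD13. At 2% O2 it was -0.090 to 0.069 for HOXA2, -0.035 to 0.046 for HOXB3, -0.041 to 0.0008 for HOXD9 and -0.017 to 0.10 for HOXB9. HOXC10, HOXC13, HOXB9, HOXB6 and HOXB5 kept their rise against HepG2 under sorafenib in every alternative that tested them, as HOXD10 did at 2% O2. The number of arrays and the compression of RMA near the low end limit the precision.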
